A study of Rattus norvegicus with 6 samples.

Results

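The 9 genes described here encode ligands and receptors of the epidermal growth factor (EGF) family. They were chosen by name, with earlier results of these data known. Areg, Ereg, Hbegf, Btc, Tgfa and Nrg1 encode ligands, and Egfr, Erbb2 and Erbb3 encode receptors. All probe sets that the array annotation assigns to a single one of these genes, or to an older alias, were taken. This gave 19 of the 20826 probe sets with a single gene, and 9 of 14217 genes. Of the 19, 12 probe sets of 7 genes had a mean signal above the filter on low values, and 7 lay below it, among them the only probe sets of Btc and Erbb3.

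RNA of 3Y1 cells, fibroblasts derived from rat embryos, was measured on 6 Affymetrix arrays. The groups were MUC1-CD tumors (3Y1 cells stably transfected to express the cytoplasmic domain of the mucin MUC1, grown under the skin of female athymic mice), MUC1-CD culture (the same transfected cells grown in dishes with fetal bovine serum) and Vector culture (3Y1 cells stably carrying the empty vector, grown in the same way). Each group had 2 arrays, labelled biological replicates, and the design sets the genes that go with expression of MUC1-CD in culture beside those that go with growth of these cells as tumors. Vector cells were also injected into mice, but no array of them is used here. The labels do not say whether a transfected line is 1 clone or a pool, or whether its replicates are separate cultures or mice. MUC1-CD itself and other differences between the lines therefore cannot be told apart, and the p-values measure the spread between these arrays, which may be technical.

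EGF family ligands are made as precursors anchored in the cell membrane and are released by metalloproteases of the ADAM family. Amphiregulin and TGF-alpha bind EGFR, epiregulin, betacellulin and HB-EGF bind EGFR and ERBB4, and neuregulin-1 binds ERBB3 and ERBB4. A bound receptor pairs with a second one, often ERBB2, which has no known ligand of its own, and the pair signals through RAS and the kinase ERK. In fibroblasts this route is known for driving growth, and EGFR is known to phosphorylate the cytoplasmic domain of MUC1.

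Values are MAS5 signals, an intensity without unit on a linear scale, given per array. Differences are those of log2(signal + 16), a scale that understates changes at low signal, with the standard error (SE) or 95% confidence interval of limma, and p-values adjusted by Benjamini-Hochberg over all probe sets above the filter. The level of 1 probe set cannot be set against that of another. As a guide to the bottom of the scale, 27 control probe sets for Bacillus genes had signals of 0.1 to 48.7 over the 6 arrays. The number of arrays limits the precision of every difference.

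The Vector arrays stood apart. Their ratios of 3' to 5' signal for Gapdh, a measure of RNA integrity, were 11.5 and 17.8, against 1.11 to 1.18 on the 4 MUC1-CD arrays, and for beta-actin 4.15 on Vector replicate 1 and 41.7 on Vector replicate 2, against 2.97 to 3.37. The control for 5S ribosomal RNA had signals of 1800 and 1470 on the Vector arrays, against 227.4 to 291.5 on the MUC1-CD arrays. The median signal was 84.4 and 84 on the Vector arrays, against 103.9 to 130.4. The integrity of the RNA and these other features of the Vector arrays therefore cannot be told apart from the group. The differences of the members against Vector that were called are also given with each Vector array left out. Since both Vector arrays had high Gapdh ratios, these values show the weight of each array and do not separate integrity from group. All 10 fibroblast markers were above the filter, with summed signals of 97800 to 101900 in tumors, 77487 to 79060 in MUC1-CD culture and 107400 to 111810 in Vector culture. Of the 10, 2 were higher in MUC1-CD culture than in Vector culture, Thy1 at 1.82 and Prrx1 at 0.94, and 5 were lower, led by the collagen genes Col3a1 at -1.48 and Col1a1 at -1.39. In tumors against MUC1-CD culture 3 were higher, Col3a1 at 1.51, Pdgfrb at 1.28 and Col1a2 at 0.37, and 0 were lower by limma, also at an unadjusted p under 0.05. Over all 10037 genes with a probe set above the filter, 21.2% were higher and 24.9% lower in MUC1-CD culture than in Vector culture. In tumors against MUC1-CD culture, 9.82% of them were higher and 8.97% lower.

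In culture, MUC1-CD cells had higher signals than Vector cells for the ligands amphiregulin, epiregulin, TGF-alpha and neuregulin-1. Of the 12 tested probe sets 8 were higher, where 25.0% of all 18625 tested probe sets were, and 1 was lower, where 20.7% were, which makes 9 called, where 45.8% were in either direction. The 8 belonged to the ligand genes Areg, Ereg, Tgfa with 2 and Nrg1 with 4, and the lower one to Egfr. By gene, 4 of the 7 tested were higher and 1 lower, where 21.2% and 24.9% of all 10037 genes were. A member gene was counted if any of its probe sets was called, while the shares rest on the brightest probe set of each gene. The median over the 12 was 1.26, against 0.07 over all tested probe sets. No called difference of a member, in any comparison, changed sign under the alternatives run. The filter used the mean of all 6 arrays, so a probe set could pass through the group where it is high. Because the members were chosen with earlier results of these data known, these counts are a description.

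Areg, for amphiregulin, had signals of 5101 and 4661 in MUC1-CD culture, against 113 and 177 in Vector culture. Both MUC1-CD arrays were far above both Vector arrays, and the arrays did not overlap. The means were 4881 ± 311 and 145 ± 45.5 (SD, n = 2 each), a signal ratio of 33.6. On the log2 scale Areg rose by 4.95 ± 0.20 (SE; 95% interval 4.48 to 5.43; limma adjusted p = 2.49e-05). Without Vector replicate 1 the difference was 4.66, and without Vector replicate 2 it was 5.25. It stayed called under all 15 alternatives run, with values of 4.58 to 5.25 and adjusted p of 6.99e-11 to 0.00144.

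Ereg, for epiregulin, had signals of 141 and 156 in MUC1-CD culture, against 28.4 and 36.6 in Vector culture. The arrays did not overlap, and both Vector values lay within the range of the Bacillus controls, so the Vector level is close to the bottom of the scale. Ereg rose by 1.77 ± 0.26 (SE; adjusted p = 0.00213). The difference was 1.65 without Vector replicate 1 and 1.89 without Vector replicate 2, and it depended on the pseudocount, with 2.17 at a pseudocount of 1 and 1.14 at 64.

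Areg, Ereg and Btc lie side by side on rat chromosome 14, in the order Btc, Areg, Ereg among protein-coding genes of the GRCr8 assembly. This neighbourhood was looked at after the values of Areg and Ereg were known. Among the 25 protein-coding genes on either side of Areg, 21 had a probe set above the filter (measured genes), Ereg among them. Of these, 3 rose in MUC1-CD culture against Vector culture and 7 fell, where 21.2% of all 10037 measured genes were higher and 24.9% lower. The 21 differences ran from -1.44 to 1.77, with a median of -0.25. The counts were 4 and 9 without Vector replicate 1, and 6 and 7 without Vector replicate 2. With all arrays, those that rose were Ereg, the nearby Mthfd2l, a mitochondrial folate enzyme, at 0.44, and Rufy3 at the far end of the window at 0.72. Rchy1, the nearest measured gene on the other side, was lower by a difference of -0.60. Over all 311 measured genes of chromosome 14 the median was -0.02. The differences of Areg and Ereg were above those of the other measured genes of the window.

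**Figure D1:**
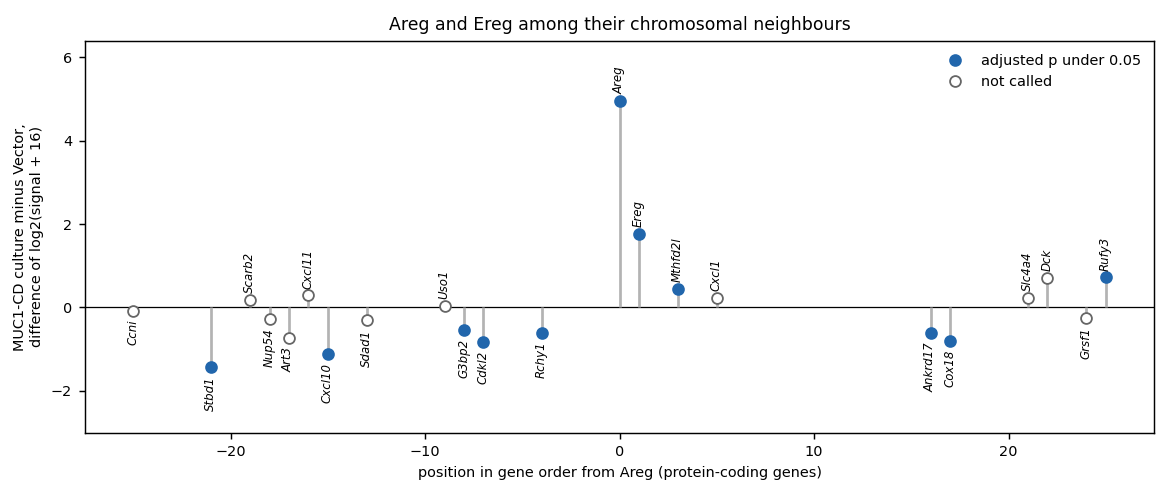
Differences of log2(signal + 16), MUC1-CD culture minus Vector culture, on the y axis for the measured protein-coding genes around Areg, by position in gene order on the x axis; filled points have an adjusted p under 0.05. Areg at 4.95 and Ereg at 1.77 stand above the others, which lie between -1.44 and 0.72.

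Tgfa, for TGF-alpha, has a pair of probe sets, and both were above the filter. Probe set 1381449_s_at had signals of 526 and 541 in MUC1-CD culture, against 279 and 156 in Vector culture. Probe set 1387450_at had 142 and 174 in MUC1-CD culture, against 68.8 and 48.1 in Vector culture. On both, the MUC1-CD arrays were higher without overlap, and Vector replicate 2 was the lowest array. The differences were 1.28 ± 0.27 (SE; adjusted p = 0.00888) and 1.23 ± 0.25 (SE; adjusted p = 0.00708). They were 1.67 and 1.44 without Vector replicate 1, and 0.90 and 1.03 without Vector replicate 2. The calls were lost without MUC1-CD culture replicate 2 (1.26 and 1.10; adjusted p = 0.0649 and 0.0725), and for the first probe set also without replicate 1 (1.30; adjusted p = 0.0570). Over the alternatives the adjusted p was 9.57e-06 to 0.0649 for the first and 0.000736 to 0.0725 for the second. A name ending in _s_at marks a probe set that may match transcripts of more than a single gene, and the second probe set does not carry it.

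Nrg1, for neuregulin-1, is spliced into many forms. Of its 8 probe sets 4 were above the filter, and these 4 rose. Probe set 1369783_a_at had signals of 410 and 402 in MUC1-CD culture, against 91.5 and 111 in Vector culture. It rose by 1.85 ± 0.19 (SE; adjusted p = 0.000448), with 1.73 and 1.97 without Vector replicate 1 or 2. Probe set 1370607_a_at had 223 and 220 in MUC1-CD culture, against 2.5 and 24.2 in Vector culture, so the Vector arrays were at the bottom of the scale and far apart from each other. Its difference was 3.12 (95% interval 2.23 to 4.01; adjusted p = 0.000901), and it depended on the pseudocount, with 4.56 at a pseudocount of 1 and 1.90 at 64. Without Vector replicate 1 it was 2.56, and without Vector replicate 2 it was 3.68. Probe set 1371211_a_at had 109 and 149 in MUC1-CD culture, against 23.4 and 12.9 in Vector culture, and rose by 2.09 (adjusted p = 0.00330). It was 2.31 and 1.86 without Vector replicate 1 or 2. Probe set 1371212_at had 90 and 92.5 in MUC1-CD culture, against 33.7 and 42.1 in Vector culture. It rose by 1.00 (adjusted p = 0.0164), with 0.88 and 1.11 without Vector replicate 1 or 2, and no array overlapped on either. The Vector signals of both probe sets lay within the range of the Bacillus controls, and their differences depended on the pseudocount, with 2.80 and 1.25 at a pseudocount of 1, and 1.23 and 0.61 at 64. The second call was lost without MUC1-CD culture replicate 1 or 2 (1.01 and 0.98, adjusted p = 0.0938 and 0.106; 0.00415 to 0.106 over its 14 alternatives).

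Hbegf, for HB-EGF, did not pass the test in culture. Its signals were 308 and 211 in MUC1-CD culture, against 255 and 243 in Vector culture, and the Vector arrays lay between the MUC1-CD arrays. The difference was 0.03, with a 95% interval of -0.51 to 0.58 (adjusted p = 0.918). Under 4 of 15 alternatives its sign turned.

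**Figure D2:**
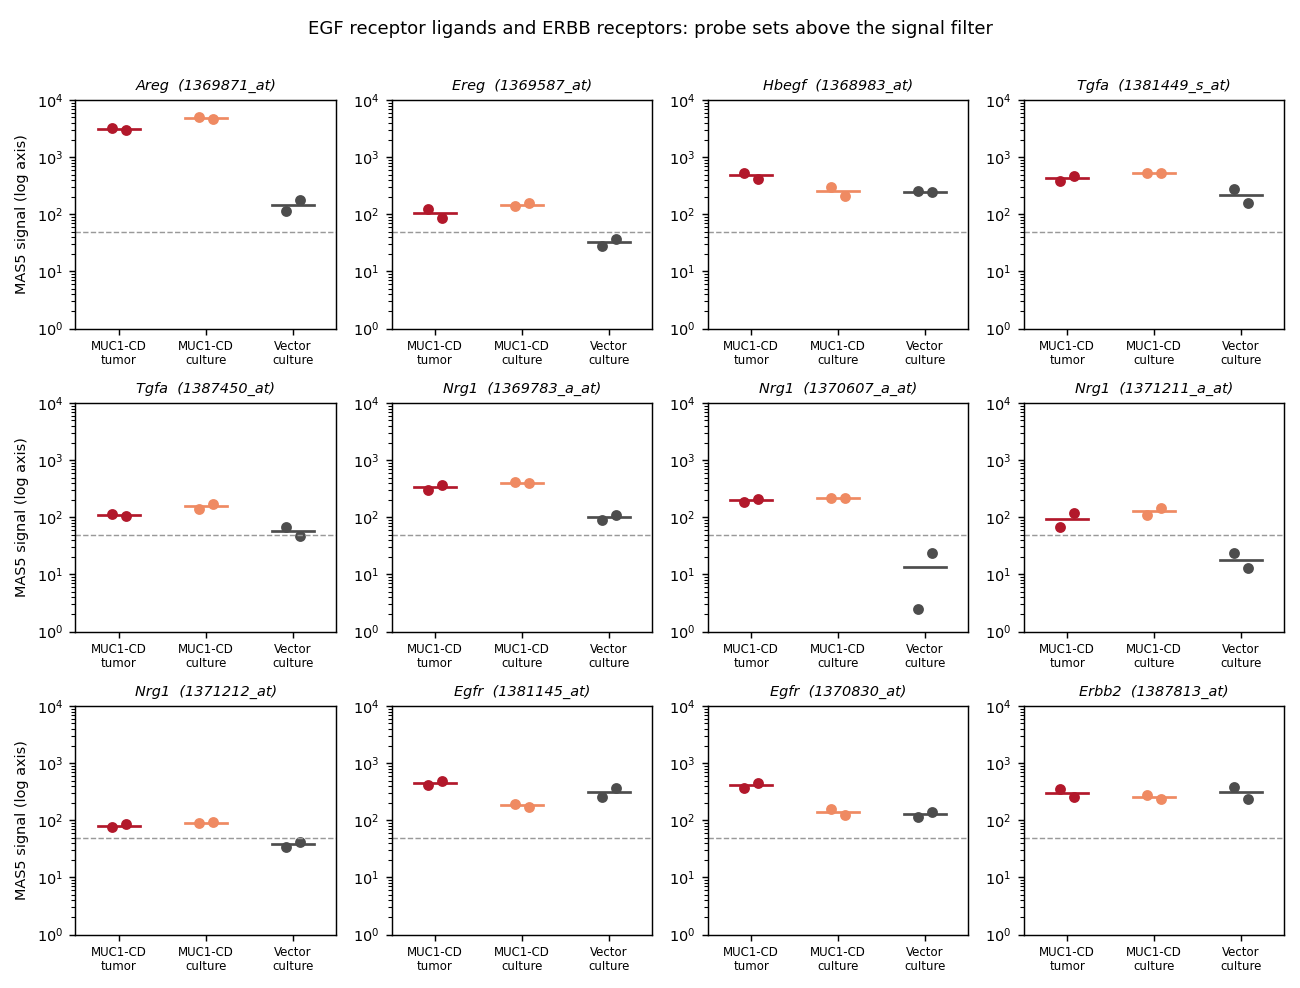
MAS5 signals on a log y axis of the 12 probe sets above the filter, with a point for each array and a line at the mean of the 2 arrays, for MUC1-CD tumors, MUC1-CD culture and Vector culture; the dashed line is the highest Bacillus control signal, 48.7. Areg, Ereg, Tgfa and Nrg1 are lowest on the Vector arrays, while Egfr and Hbegf are highest on the tumor arrays.

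Among the receptors, the probe sets of Egfr did not give the same answer in culture. Probe set 1381145_at had signals of 196 and 173 in MUC1-CD culture, against 254 and 367 in Vector culture, and it fell by 0.68 on the log2 scale (SE 0.22; adjusted p = 0.0403). The difference was -0.93 without Vector replicate 1, and without Vector replicate 2 it was -0.43 and the call was lost (adjusted p = 0.0592; 0.000778 to 0.206 over its 15 alternatives, of which 8 kept the call). It was also lost without any 1 of the 4 MUC1-CD arrays, culture or tumor, and without the filter, and in the fit on these groups alone, with differences of -0.77 to -0.60. Probe set 1370830_at had 156 and 123 in MUC1-CD culture, against 114 and 141 in Vector culture. These arrays overlapped, and the difference was 0.11 (95% interval -0.40 to 0.62; adjusted p = 0.695). The culture data therefore give no single direction for Egfr.

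Erbb2, the receptor without a ligand, had signals of 274 and 234 in MUC1-CD culture, against 386 and 238 in Vector culture. The arrays overlapped, with a difference of -0.25 (95% interval -0.89 to 0.40; adjusted p = 0.489). The Vector arrays decided its value: without Vector replicate 2 it was -0.58 and passed the test (adjusted p = 0.0331), and without Vector replicate 1 it was 0.08 (adjusted p = 0.750; 0.0331 to 0.810 over its 15 alternatives).

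Tumors were compared with MUC1-CD culture to find what goes with growth in the animal. Here the receptor Egfr, on its probe sets above the filter, and the ligand Hbegf were higher in tumors. The ligands that separated MUC1-CD culture from Vector culture did not pass the test. Of the 12 tested probe sets 3 were higher, where 8.54% of all tested probe sets were, and 0 were lower, where 7.31% were, against 15.8% called in either direction. By gene, 2 of the 7 tested were higher and 0 lower, where 9.82% and 8.97% of all 10037 genes were. The median of the 12 probe sets was -0.21, against 0.05 over all tested probe sets. By limma's unadjusted p-value Areg was the only lower probe set of the 12 under 0.05, at 0.0161. These values share the MUC1-CD culture arrays with the comparison above.

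Egfr probe set 1370830_at had signals of 373 and 449 in tumors, against 156 and 123 in MUC1-CD culture. Probe set 1381145_at had 420 and 488 in tumors, against 196 and 173 in MUC1-CD culture. On both, each tumor array was higher than each culture array. They rose by 1.46 ± 0.21 and 1.23 ± 0.22 (SE; limma adjusted p = 0.00655 and 0.0132), signal ratios of 2.94 and 2.46. With 1 array of either group left out the differences were 1.30 to 1.61 and 1.12 to 1.33, and the adjusted p reached 0.0820 and 0.124, with the lone array assumed to vary like the other groups. The call was lost without MUC1-CD culture replicate 2, tumor replicate 1 or tumor replicate 2 for the first probe set (1.30, 1.59 and 1.33; adjusted p = 0.0793, 0.0552 and 0.0820), and also without MUC1-CD culture replicate 1 for the second (1.31 without it).

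Hbegf had signals of 543 and 419 in tumors, against 308 and 211 in MUC1-CD culture. The arrays did not overlap. It rose by 0.86 ± 0.23 (SE; adjusted p = 0.0475), close to the threshold, and 6 of 15 alternatives kept the call (0.60 to 1.12; adjusted p = 0.00375 to 0.292). Among those that lost it were the scaling of each array to its median (0.60, adjusted p = 0.106) and quantile normalization (0.81, adjusted p = 0.0547). It was also lost without any 1 of the 4 arrays compared, where the differences were 1.12 and 0.61 without MUC1-CD culture replicate 1 or 2, and 0.68 and 1.04 without tumor replicate 1 or 2.

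Areg had signals of 3239 and 3019 in tumors, against 5101 and 4661 in MUC1-CD culture. Both tumor arrays were below both culture arrays, at a signal ratio of 0.641. The difference was -0.64 (95% interval -1.11 to -0.16; adjusted p = 0.0778). The fit on the arrays of these groups alone called it at the same size (adjusted p = 5.48e-05; 5.48e-05 to 0.365 over its 15 alternatives, 5 of which called it).

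Ereg had signals of 124 and 87.3 in tumors, against 141 and 156 in MUC1-CD culture, with a difference of -0.45 (95% interval -1.08 to 0.17). The Tgfa probe sets had differences of -0.32 and -0.44 (95% intervals -0.96 to 0.33 and -1.02 to 0.15). The 4 Nrg1 probe sets had differences of -0.14 to -0.44, and their intervals ran from as low as -1.26 to as high as 0.74. Erbb2 had 353 and 256 in tumors, against 274 and 234 in MUC1-CD culture, with a difference of 0.23 (95% interval -0.41 to 0.88). None of these passed limma's test (adjusted p = 0.274 to 0.826), and the intervals show how large a change could have gone uncalled.

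Tumor RNA came from whole tissue, where fewer cells of a type and less RNA per cell cannot be told apart. Many markers of host cells above the filter were higher on the same arrays than in MUC1-CD culture. The filter used the mean of all 6 arrays, so a marker could pass through the tumor arrays alone, and the counts are descriptions. Over all measured genes, 9.82% were higher and 8.97% lower in tumors against MUC1-CD culture. Of 10 macrophage genes, 6 were above the filter and 5 of these rose in tumors against MUC1-CD culture, with summed signals over the list of 6239 to 6373 in tumors, 3037 to 3244 in MUC1-CD culture and 725 to 750 in Vector culture. Aif1, a macrophage marker, had 604 and 639 in tumors, 0.4 and 0.8 in MUC1-CD culture and 2.4 and 13.5 in Vector culture, while Cd14, a receptor for bacterial lipid that fibroblasts can also make, was at 2828 and 3052 in MUC1-CD culture. Of 10 endothelial genes, 3 were above the filter and all 3 rose, and the sums were 1051 to 1196 in tumors, 249 to 336 in MUC1-CD culture and 294 to 343 in Vector culture. Below the filter, Tie1, Emcn and Eng were higher on both tumor arrays than on both MUC1-CD culture arrays. Vwf was lower there, with 9.7 and 10.2 against 24.3 and 21.1, and Pecam1 and Kdr overlapped. Of 8 skeletal muscle genes, 6 were above the filter and all 6 rose, with sums of 8065 to 8508 in tumors, 221 to 329 in MUC1-CD culture and 287 to 314 in Vector culture.

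Of 10 keratinocyte and epithelial genes, 3 were above the filter and 1 rose, Cdh1, for E-cadherin, with 537 and 425 in tumors and 1.1 and 5.2 in MUC1-CD culture. The sums of that list were 920 to 929 in tumors, 203 to 265 in MUC1-CD culture and 810 to 931 in Vector culture. In Vector culture most of the sum was Krt8, at 450 and 424, and Krt10, at 249 and 351, while Cdh1 was at 11.3 and 13.3. Of 7 Schwann cell and nerve genes, 1 was above the filter and did not pass the test, and the sums were 7043 to 7430 in tumors, 8603 to 9090 in MUC1-CD culture and 5718 to 7500 in Vector culture. The part of host cells, including mouse RNA read by rat probes, in the tumor values of Egfr and Hbegf was not tested. Per the labels, tumors were frozen, homogenized and purified over columns while cultured cells were not, and this preparation cannot be told apart from growth in the mouse.

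Tumors were also set against Vector culture, a comparison that shares arrays with both others. Of the 12 tested probe sets 10 were higher, where 29.1% of all tested probe sets were, and 0 were lower by limma, where 22.4% were, against 51.5% called in either direction. At an unadjusted p under 0.05, no member probe set was lower either. By gene, 6 of the 7 tested were higher, Egfr through probe set 1370830_at only, where 24.8% of all 10037 genes were. Areg was higher by 4.32 ± 0.20 (SE; adjusted p = 2.55e-05), with 4.02 and 4.61 without Vector replicate 1 or 2. Ereg was higher by 1.32 ± 0.26 (adjusted p = 0.00599), and the 4 Nrg1 probe sets by 0.85 to 2.97 (adjusted p = 0.000655 to 0.0262). Without tumor replicate 1 the call of Ereg was lost (1.10; adjusted p = 0.0507), and without tumor replicate 2 that of Nrg1 probe set 1371211_a_at (1.31; adjusted p = 0.0577), while over their alternatives the adjusted p began at 0.00159 and 0.00109. The call of Nrg1 probe set 1371212_at held under 5 of 14 alternatives. Without Vector replicate 1 or 2 Ereg was at 1.19 and 1.44. The Nrg1 probe sets, in the order 1369783_a_at, 1370607_a_at, 1371211_a_at and 1371212_at, were at 1.46, 2.41, 1.87 and 0.74 without replicate 1, and at 1.71, 3.53, 1.42 and 0.97 without replicate 2.

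Egfr probe set 1370830_at was higher in tumors than in Vector culture by 1.57 ± 0.21 (SE; adjusted p = 0.00123), and it stayed called under all 15 alternatives, with 1.44 and 1.70 without Vector replicate 1 or 2. Probe set 1381145_at had a difference of 0.55 (95% interval 0.03 to 1.06) and did not pass (adjusted p = 0.0745), but passed without Vector replicate 2 (0.80, adjusted p = 0.00261; 0.00261 to 0.929 over its 15 alternatives). Hbegf was higher by 0.90 ± 0.23 (adjusted p = 0.0161), and the Tgfa probe sets by 0.97 and 0.79 (adjusted p = 0.0232 and 0.0328). Hbegf lost its call without tumor replicate 1 (0.72; adjusted p = 0.118; 0.00423 to 0.251 over its 15 alternatives). It was at 0.93 and 0.86 without Vector replicate 1 or 2. Without Vector replicate 1 the Tgfa differences were 1.35 and 1.00, without Vector replicate 2 they were 0.58 and 0.59, and their calls held under 9 of 15 and 4 of 14 alternatives. Division of each array by its median ended the calls of Hbegf (0.33), of both Tgfa probe sets (0.40 and 0.30) and of Nrg1 probe set 1371212_at (0.39), leaving 6 of 12. Erbb2 had a difference of -0.01 (95% interval -0.66 to 0.63).

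**Figure D3:**
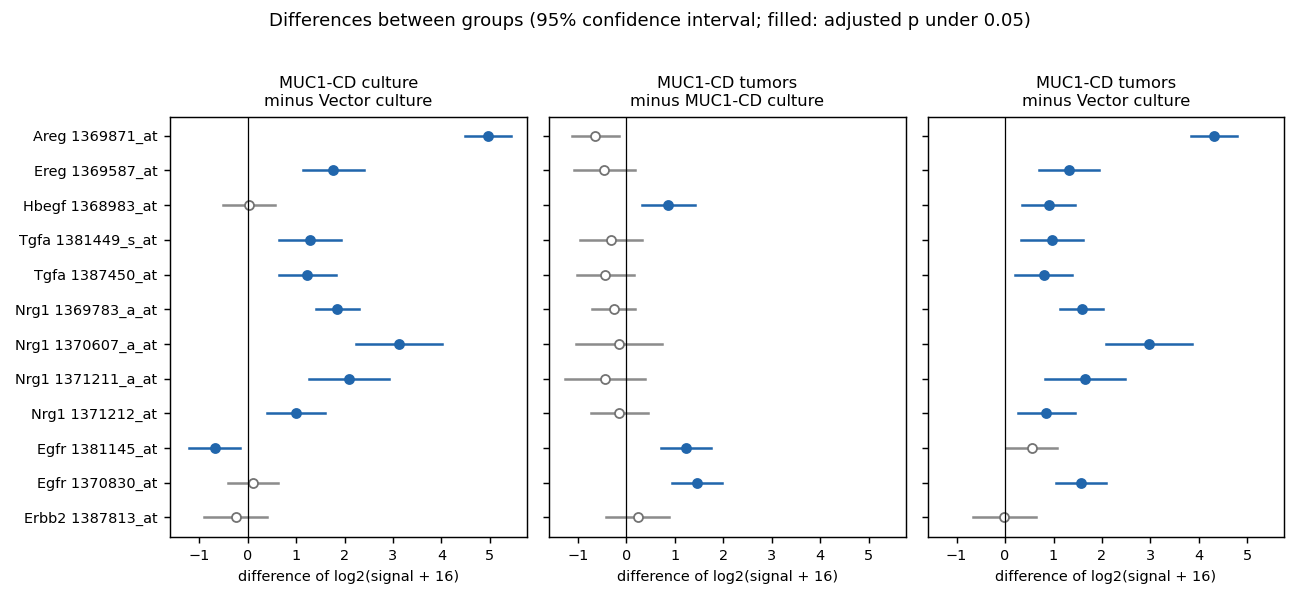
Differences of log2(signal + 16) on the x axis with 95% confidence intervals for the 12 probe sets above the filter, in 3 comparisons; filled points have an adjusted p under 0.05. Every ligand probe set lies right of 0 against Vector culture, Hbegf in culture at 0.03 with an interval across 0, and only Egfr and Hbegf are called between tumors and MUC1-CD culture.

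The 7 probe sets below the filter had signals of 2.3 to 60.7, most of them within the range of the Bacillus controls. Btc, for betacellulin, had 51.1 and 36.4 in tumors, 27.4 and 36.7 in MUC1-CD culture and 9.1 and 39.0 in Vector culture, and the groups overlapped. Erbb3, the neuregulin receptor with a weak kinase, had 31.5 and 32.4 in tumors, 23.1 and 8.9 in MUC1-CD culture and 6.3 and 7.8 in Vector culture. A single value of Btc, that of tumor replicate 1, exceeded 48.7, and no value of Erbb3 did.

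Fitted without the filter, 1 of these 7 was higher in MUC1-CD culture than in Vector culture, Nrg1 probe set 1370616_at, where 14.1% of all 31042 probe sets were, and 0 were lower, where 12.0% were, against 26.1% called in either direction. It had 41.0 and 60.7 in MUC1-CD culture, against 10.9 and 13.1 in Vector culture (difference 1.24; adjusted p = 0.0455). Between tumors and MUC1-CD culture 0 of the 7 were called by limma, where 4.96% of all probe sets were higher, 3.66% lower and 8.62% called in either direction, and 1 had an unadjusted p under 0.05. Between tumors and Vector culture 2 of the 7 were higher, where 19.0% of all were, and 0 were lower by limma, where 13.0% were, against 32.0% called in either direction. The 2 were Nrg1 probe set 1388258_at (1.34; adjusted p = 0.0212) and Erbb3 (1.06; adjusted p = 0.0380). The first had 29.3 and 50.9 in tumors, against 5.5 and 5.9 in Vector culture. The other Nrg1 probe sets below the filter, 1388245_a_at with signals of 5.9 to 39.1 and 1371218_a_at with 2.3 to 22.8, did not pass in any of the 3 comparisons. Against Vector culture, 1388245_a_at was opposite in sign to the Nrg1 probe sets above the filter, at -0.40 in MUC1-CD culture and -0.67 in tumors. Its arrays overlapped in the first of these comparisons and not in the second. Probe set 1371218_a_at was at -0.04 and 0.65 in the same comparisons. Egfr probe set 1385413_at had 17.3 and 10.6 in tumors, 40.4 and 17.6 in MUC1-CD culture and 30 and 10 in Vector culture. Its Vector arrays overlapped both other groups. Its tumor arrays were below its MUC1-CD culture arrays, with a difference of -0.55, opposite in sign to the Egfr probe sets above the filter. All its signals lay within the range of the Bacillus controls, and it did not pass in any comparison.

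**Figure D4:**
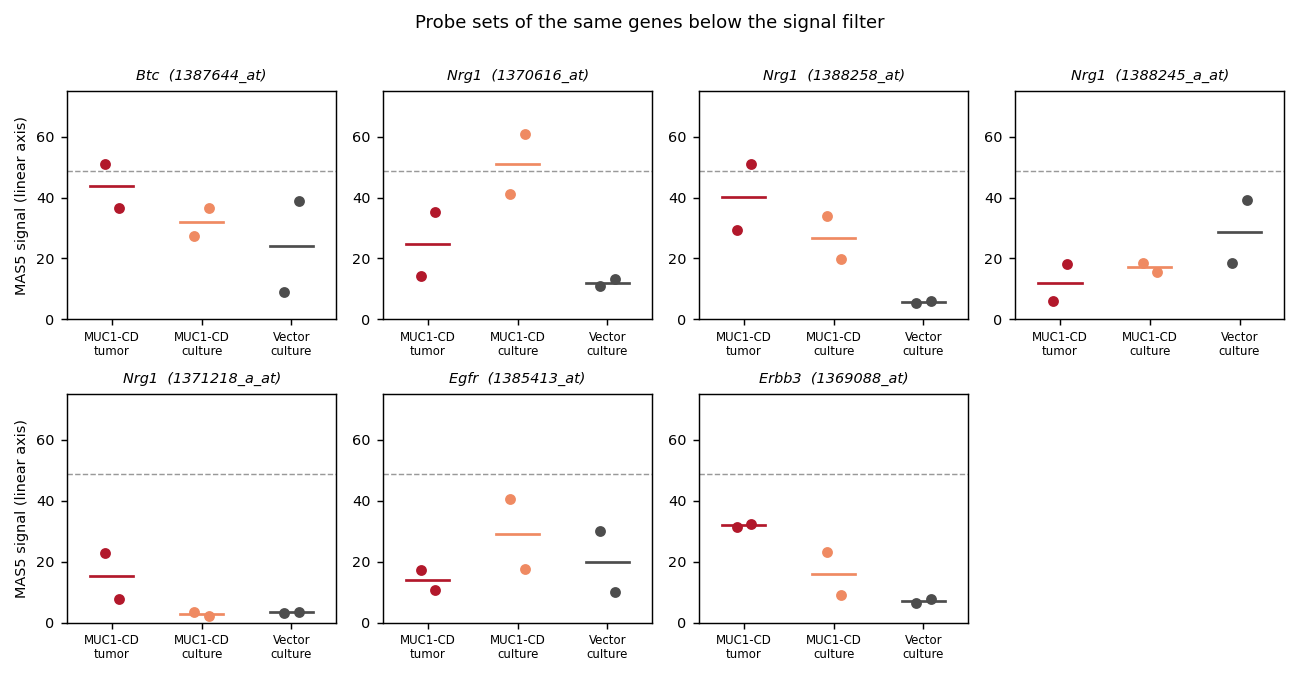
MAS5 signals on a linear y axis of the 7 probe sets below the filter, with a point for each array and a line at the mean of the 2 arrays, for MUC1-CD tumors, MUC1-CD culture and Vector culture; the dashed line is the highest Bacillus control signal, 48.7. Most points lie under the line.

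The sequences before the gene starts are shown for the members that were called in a comparison and that the RefSeq promoter table of the GRCr8 assembly holds, since these are the letters next to which the ligands and the receptor are transcribed. The table matched 6 of the 9 genes, Areg, Tgfa, Hbegf, Egfr, Btc and Erbb2. Each entry holds 250 bases before the annotated start and 50 after it, and positions are counted from the start. They were searched on both strands for the AP-1 motif TGANTCA, the cyclic AMP response element TGACGTCA, its part TGACG, the STAT motif TTCNNNGAA, the SP1 box GGGCGG and the TATA box TATAAA. Capitals mark matches:
Areg promoter, GRCr8 chr14:17265592-17265891, minus strand: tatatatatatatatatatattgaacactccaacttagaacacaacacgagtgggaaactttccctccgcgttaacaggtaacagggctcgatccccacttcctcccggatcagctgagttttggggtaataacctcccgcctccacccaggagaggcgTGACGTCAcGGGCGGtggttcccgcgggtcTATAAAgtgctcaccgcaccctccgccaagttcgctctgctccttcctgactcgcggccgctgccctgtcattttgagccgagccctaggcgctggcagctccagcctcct
Tgfa promoter, GRCr8 chr4:120175469-120175768, plus strand: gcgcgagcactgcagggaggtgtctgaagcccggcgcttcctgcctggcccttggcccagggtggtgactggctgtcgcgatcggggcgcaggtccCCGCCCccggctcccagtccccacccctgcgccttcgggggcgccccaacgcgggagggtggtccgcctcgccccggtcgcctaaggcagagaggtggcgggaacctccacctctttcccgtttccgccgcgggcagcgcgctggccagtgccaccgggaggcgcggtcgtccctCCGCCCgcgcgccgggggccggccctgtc
Hbegf promoter, GRCr8 chr18:28390171-28390470, minus strand: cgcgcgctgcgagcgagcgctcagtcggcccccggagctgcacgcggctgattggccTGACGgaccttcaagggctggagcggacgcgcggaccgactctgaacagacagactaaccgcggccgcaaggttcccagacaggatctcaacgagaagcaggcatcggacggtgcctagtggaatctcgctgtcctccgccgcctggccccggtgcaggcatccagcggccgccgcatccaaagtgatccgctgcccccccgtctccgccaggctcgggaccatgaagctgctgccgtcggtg
Egfr promoter, GRCr8 chr14:95378376-95378675, plus strand: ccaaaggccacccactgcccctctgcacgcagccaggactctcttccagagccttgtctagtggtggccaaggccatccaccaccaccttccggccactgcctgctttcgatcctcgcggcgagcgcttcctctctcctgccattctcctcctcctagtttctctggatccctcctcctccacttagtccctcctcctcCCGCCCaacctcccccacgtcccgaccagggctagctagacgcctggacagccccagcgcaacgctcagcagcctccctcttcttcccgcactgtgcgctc

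Areg held a full cyclic AMP response element at -91, which also counts as its part on each strand, at -91 and -88, followed by an SP1 box at -82 and a TATA box at -61. The full element is in 1.83% of the 33469 promoters of the table, its part in 21.2%, the SP1 box in 33.1% and the TATA box in 14.2%. Tgfa held SP1 boxes at -154 and 22, Egfr one at -51, and Hbegf the part TGACG at -193. Btc and Erbb2 each held an SP1 box, at -127 and -98. The AP-1 motif, found in 7.33% of all promoters, and the STAT motif, in 8.87%, were in none of these 6 windows. A match describes these letters only.

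The other genes of the pathway were described from lists chosen by function, also with earlier results of these data known. Over all 10037 measured genes, 21.2% were higher and 24.9% lower in MUC1-CD culture than in Vector culture, with a median of -0.04. Between tumors and MUC1-CD culture 9.82% were higher and 8.97% lower, with a median of 0.03. The adjusted p-values below are those of limma. With either Vector array left out, every gene of these lists that was called in MUC1-CD culture against Vector culture kept its call and its direction.

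Of 15 genes for ligand shedding and co-receptors, 12 were measured. In MUC1-CD culture against Vector culture 3 were higher and 2 lower, with a median of 0.28. That median was 0.73 without Vector replicate 1 and -0.03 without Vector replicate 2, with 7 and 3 genes higher and 2 and 5 lower. Adam17, the main protease that releases amphiregulin and TGF-alpha, rose by 1.44 ± 0.10, and Adam9, a related protease, by 1.81 ± 0.33 (SE; adjusted p = 0.000142 and 0.00486). Adam9 averaged 79.5 in MUC1-CD culture and 12.15 in Vector culture, and this Vector mean lay within the range of the Bacillus controls. Adam15 fell by 1.46 and the proteoglycan gene Sdc1 fell by 0.94 (adjusted p = 0.000412 and 0.00347). In tumors against MUC1-CD culture 2 were higher and 1 lower, with a median of 0.50. Sdc1 rose by 2.70 ± 0.16 and Timp3, an inhibitor of ADAM17, by 3.04 ± 0.51, while Adam17 fell by 0.46 (adjusted p = 0.000223, 0.0107 and 0.0300). Timp3 averaged 161 in tumors and 5.85 in MUC1-CD culture.

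Of 22 genes for adaptors and the cascade from RAS to ERK, 13 were measured. In MUC1-CD culture against Vector culture 2 were higher and 5 lower, with a median of -0.37. The counts were 3 and 9 without Vector replicate 1 and 3 and 5 without Vector replicate 2, with medians of -0.53 and -0.22. Shc1, an adaptor at the receptor, rose by 1.14 ± 0.17, and Map2k1, for the kinase MEK1, by 0.72 ± 0.14 (SE; adjusted p = 0.00203 and 0.00613). Nras fell by 1.38 and the adaptor gene Gab1 fell by 0.84 (adjusted p = 0.000288 and 0.00401). In tumors against MUC1-CD culture 1 was higher, Nras at 0.62, and 1 was lower, Shc1 at -0.79, with a median of -0.04 (adjusted p = 0.0185 and 0.0232).

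Of 23 genes for inhibitors and turnover of the receptors, 19 were measured, and in MUC1-CD culture against Vector culture 10 were higher and 4 lower, with a median of 0.47, and the median was 0.53 and 0.43 without Vector replicate 1 or 2. Lrig1, which limits the amount of ERBB receptors, averaged 6633 in MUC1-CD culture and 809 in Vector culture and rose by 3.02 ± 0.16 (SE; adjusted p = 4.84e-05), with 2.84 and 3.21 without Vector replicate 1 or 2. Spry2, a feedback inhibitor of RAS signalling, rose by 1.55 ± 0.14, and Sh3kbp1, an adaptor in receptor uptake, by 1.79 ± 0.18. Ptprj, a receptor phosphatase with a mean of 22.5 in MUC1-CD culture, within the range of the Bacillus controls, fell by 2.87 (adjusted p = 0.000188 to 0.000427 for these 3). Between tumors and MUC1-CD culture 2 were higher and 2 lower, with a median of 0.22. Ptprj and Sh3kbp1 rose by 2.97 ± 0.23 and 1.54 ± 0.18, and the endocytic genes Eps15 and Cd2ap fell by 0.78 and 0.59 (adjusted p = 0.000510 to 0.0196).

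Of 15 genes that respond to ERK, 12 were measured, and 10 were higher and 1 lower in MUC1-CD culture than in Vector culture, with a median of 1.42, and of 1.79 and 0.97 without Vector replicate 1 or 2. The lower one was Myc, at -3.81, and the higher ones included the ERK phosphatase gene Dusp6 at 2.62. Between tumors and MUC1-CD culture 2 were higher, Egr1 at 2.07 and Myc at 0.80, and 0 were lower by limma, with 1 below 0 at an unadjusted p under 0.05, Fosl1 (-0.53), and a median of 0.20. Of 6 further genes, other ligands and the receptor Erbb4, only Egf was measured above the filter, and it did not pass in either comparison. Egf was called lower in MUC1-CD culture than in Vector culture, at -0.67, with Vector replicate 1 left out. In tumors against Vector culture the shedding, cascade, inhibitor and target lists had 8, 1, 12 and 10 genes higher and 1, 8, 4 and 1 lower, where 24.8% and 26.6% of all genes were. The higher counts were 11, 3, 12 and 10 without Vector replicate 1, and 8, 2, 13 and 10 without Vector replicate 2.

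**Figure D5:**
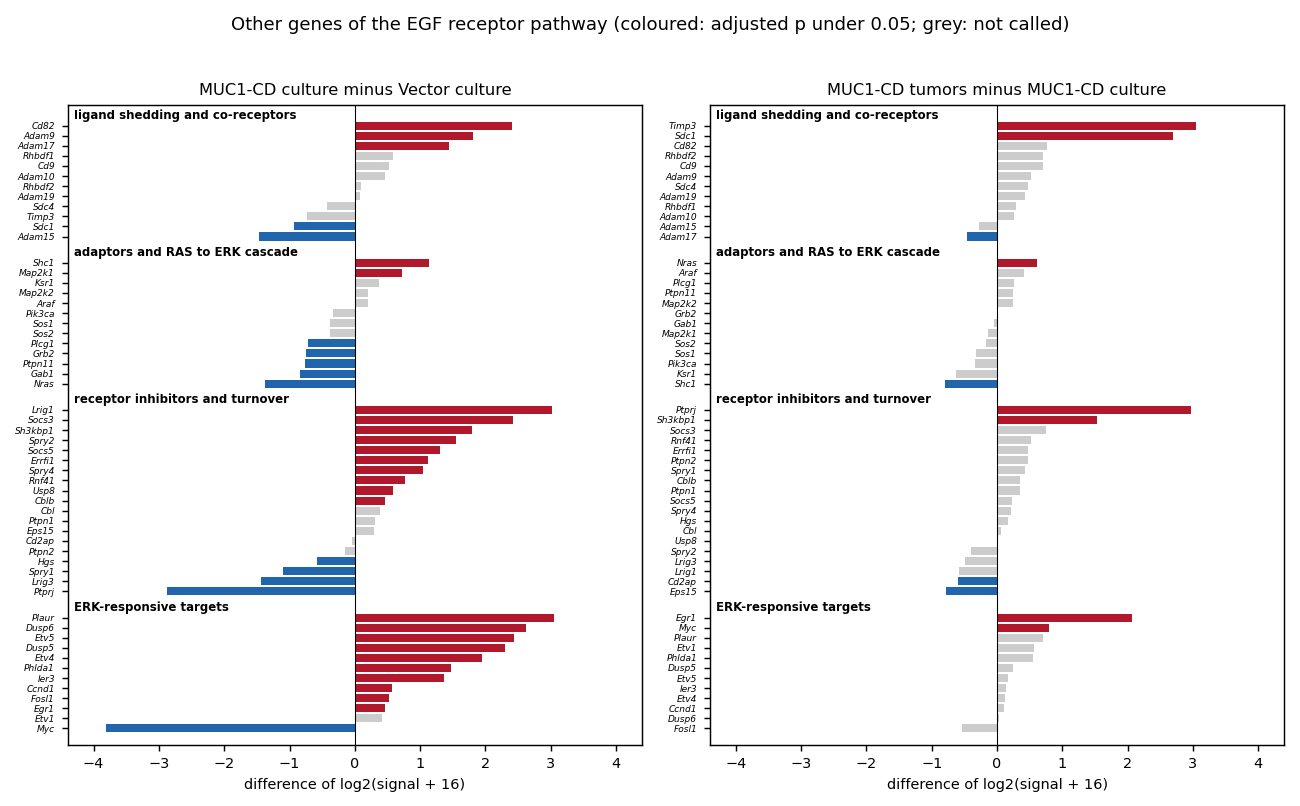
Differences of log2(signal + 16) on the x axis for the measured genes of 4 pathway lists, one bar per gene, in MUC1-CD culture minus Vector culture and in MUC1-CD tumors minus MUC1-CD culture; coloured bars have an adjusted p under 0.05. Lrig1 at 3.02 and Dusp6 at 2.62 rose and Myc fell in the first comparison, and Ptprj is at -2.87 in the first and 2.97 in the second, which share the MUC1-CD culture arrays.

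The genes whose pattern over the 6 arrays was closest to that of a member, among 10030 other measured genes, were found by the root mean square difference of log2(signal + 16) after each gene was centred on its mean. For Areg they were Col8a1, Cdh13 and Map7, at 0.229, 0.278 and 0.327. Col8a1, a short-chain collagen, had signals of 2199 and 2159 in tumors, 3427 and 3302 in MUC1-CD culture and 118 and 152 in Vector culture. For Ereg they were Usp18, Emc9 and Rnft1 (0.116 to 0.134), for Nrg1 probe set 1369783_a_at Ube2t, Bfsp1 and Tmem87b (0.0920 to 0.110), for Egfr probe set 1381145_at Cpe, Tmem53 and Nfatc1 (0.120 to 0.127), and for Hbegf Arhgap32, Sp140 and Tmem121 (0.0617 to 0.0835). These are descriptions over 6 arrays in 3 groups, with no test.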

How the data were processed

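Total RNA of 6 samples was hybridised to Affymetrix rat genome arrays. The authors deposited the MAS5 signal of every probe set. This is an intensity, linear in scale as its values show, and the submitters' processing notes name MAS5 with no version. Leaving out the top and bottom 2% of probe sets, the mean signal was 500.2 on every array, and this scaling was kept.

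Of 31099 probe sets, 57 were controls. The platform annotation gave 20826 a single gene and 436 several genes, which were left unnamed. Symbols were updated through Entrez identifiers to GRCr8, where 20758 matched. Each sample's group came from its title. The filter kept 18625 probe sets, those whose mean over the 6 arrays reached the 40th percentile, 61.6. Their log2(signal + 16) values entered 1 limma 3.58.1 model (R 4.3.3; lmFit, eBayes with a trend, 3 residual degrees of freedom) with group as the only term. P-values are 2-sided, and the Benjamini-Hochberg adjustment ran over those 18625, with a threshold of 0.05. For a pathway gene with several such probe sets, the brightest on average was used. The alternatives were pseudocounts of 1 and 64, no filter and a filter at the 60th percentile, median and quantile scaling, the compared groups alone, no trend, the replicate number as a block, and each array left out. The code was tested on simulated data. Members and lists were chosen with earlier results of these data known. All 9 members and all their probe sets are named, with up to 4 genes of smallest p per pathway list and comparison, the 3 genes closest in pattern to 5 members and, as exceptions chosen after their values were seen, the neighbours of Areg, the marker genes named, and the use of the Bacillus controls as a guide. Figures were drawn with matplotlib 3.10.9. Protein sequences are not used here, nor are promoters of Ereg, Nrg1 and Erbb3.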

Additional observations from a re-analysis of the deposited data

How the results depend on the processing

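Of 36 member differences, each recomputed under up to 15 alternatives (525 values), 448 kept their direction and their side of the threshold, 57 lost the call, 7 gained it and 13 changed sign, 0 of them among called differences. With the 60th percentile filter 4 member probe sets were called in MUC1-CD culture against Vector culture (9 in the report) and 5 in tumors against Vector culture (10 in the report), where 7 member probe sets were left to test. Division by the array median left 6 in tumors against Vector culture. It moved the median of all probe sets from 0.07 to -0.24 in MUC1-CD culture against Vector culture, from 0.05 to -0.21 in tumors against MUC1-CD culture and from 0.12 to -0.45 in tumors against Vector culture, while higher calls made up 33.7%, 22.9% and 25.7% of all calls in place of 54.7%, 53.9% and 56.5%. The fit on compared groups alone called 8049 probe sets in tumors against MUC1-CD culture, where the main count was 2952. That fit leaves out the Vector arrays, whose spread was wider (SD of the replicate difference 0.616, against 0.284 in tumors and 0.257 in MUC1-CD culture). It also estimates the spread from fewer arrays, and the cause of the higher count was not tested.

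With an array left out, the called member probe sets ranged from 5 to 9 in MUC1-CD culture against Vector culture, 0 to 4 in tumors against MUC1-CD culture and 5 to 10 in tumors against Vector culture, and all called probe sets from 4413 to 11519, 607 to 8048 and 5958 to 12401. The lowest counts came without an array of the MUC1-CD groups, with the remaining array taken to vary as much as those of other groups. In tumors against MUC1-CD culture 1 member probe set stayed called without replicate 1 of MUC1-CD culture, and 0 without replicate 2 or either tumor array. The uncalled differences that changed sign were, in MUC1-CD culture against Vector culture, Egfr 1370830_at (-0.18 and -0.13 under median and quantile scaling, -0.042 to 0.27 with an array left out), Hbegf (-0.28 and -0.11, and -0.22 to 0.29) and Erbb2 (-0.58 to 0.083); in tumors against MUC1-CD culture, Erbb2 (-0.024 under median scaling); and in tumors against Vector culture, Egfr 1381145_at (-0.026 under median scaling) and Erbb2 (-0.35 to 0.32). The cause was not tested.

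Same-numbered replicates did not deviate together (correlations of -0.045 to -0.018 between groups), so no pairing by number was seen. Such correlations cannot exclude that samples were handled in pairs. With the replicate block 9, 3 and 9 member probe sets were called in the 3 comparisons, and all called probe sets numbered 8130, 2390 and 9208. Low signals limit Btc, Erbb3 and the lower Nrg1 probe sets.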
